A study of Rattus norvegicus with 6 samples.

Results

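The 5 transcripts described here are all rows of the table listed in a single interval of chromosome 7 of the rat genome build rn5, from 9865669 to 10274413, out of 2455 transcripts with values. They were chosen by position, and the interval itself was picked because TCONS_00096625 and TCONS_00096639 were already known from these values to be high in the adrenal gland. Their adrenal levels are therefore given as a description, with no test. RNA was sequenced from adrenal gland, hypothalamus, left ventricle, liver, outer medulla and cortex of male animals of the BN (Brown Norway) rat strain aged 6 weeks, with no treatment named in the labels. The labels list 1 sample per tissue and do not say which organ the cortex came from. The table holds 2 columns per tissue, called columns 1 and 2 here. Nothing says whether these came from separate animals, so they are shown side by side and used only as a measure of spread. The columns coded B fit no label by name and were taken as hypothalamus because the other 5 codes each fit 1 label, so every statement on hypothalamus rests on that match.

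Long non-coding RNAs (lncRNAs) are longer transcripts that are not read into protein, and many are made in few tissues. Zfp347, the named gene of the interval, codes for a zinc finger protein and carries the RefSeq synonym Giot2, for gonadotropin-inducible ovary transcription repressor. Proteins of this class bind DNA through repeated zinc-holding fingers and often repress transcription, and their genes commonly lie in clusters of related copies. The adrenal gland joins an outer cortex, which makes steroid hormones, to an inner medulla, which releases catecholamines. In whole tissue, fewer cells of a type and less RNA per cell cannot be told apart.

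The interval spans 408744 bases, far more than the 22841 bases of the 5 transcripts together, and the table gives no exon positions within it. TCONS_00096625 (9660 bases) and TCONS_00096626 (11446 bases) are assigned to Zfp347 through an exon overlap with its transcript ENSRNOT00000044241. They share the gene locus XLOC_060069 and the start group TSS76043, so they are alternative forms of 1 locus. TCONS_00096637 (506 bases, XLOC_060078) and TCONS_00096639 (184 bases, XLOC_060079) have no reference gene. TCONS_00096640 (1045 bases, XLOC_060080) matches the reference transcript ENSRNOT00000011102 of ENSRNOG00000008398. The listed transcripts of the interval thus belong to 4 gene loci, and 5 of the 1547 intervals in the table have 4 or more. Only transcripts selected as lncRNAs are listed, so other loci in the interval are not counted. TCONS_00096639, at 184 bases against a median of 1758, is among the shortest entries of the table, with 4 shorter ones. No source used here gives the strand of each transcript or says if counting used strand, so overlapping transcripts of the interval may share reads.

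On the later assembly GRCr8, RefSeq places Zfp347 in a run of zinc finger genes, with 7 of its 10 nearest protein-coding neighbours (5 on each side) named as such. Zfp77 is next on one side and Zfp938 on the other, and Zfp709l1 follows a little further on. One of the 7, Znf658b-ps1, has the symbol of a pseudogene although RefSeq types it as protein-coding. Related copies can share near-identical sequence, so reads of 1 copy may have been counted for another, and the values of the Zfp347 transcripts carry that uncertainty. The stretch upstream of the RefSeq start of Zfp347 is shown because TCONS_00096625 and TCONS_00096626 were both highest in the adrenal gland and share 1 start group. Whether that group begins at the RefSeq start was not tested. The sequence is the 250 bases before the start on GRCr8, plus strand (chr7:8117749-8117998), with the match to the CCAAT box in capitals.
Zfp347 upstream: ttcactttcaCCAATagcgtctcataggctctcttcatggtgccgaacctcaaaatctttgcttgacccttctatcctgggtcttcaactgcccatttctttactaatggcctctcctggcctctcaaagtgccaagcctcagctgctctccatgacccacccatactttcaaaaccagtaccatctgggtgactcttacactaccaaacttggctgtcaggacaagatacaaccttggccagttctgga
In this window 48.4% of the bases were G or C and 2 CpG pairs occurred. CCAAT was found on the plus strand, beginning 240 bases before the start, and 34.0% of 33469 RefSeq windows of the same length hold it on either strand. The forms CAAGGTCA and CAAGGCCA, bound by the steroidogenic factor SF-1, were searched on both strands, as were the overlapping half-site AGGTCA, the cAMP response element TGACGTCA and the TATA box TATAAA. None of these letters was in the window, and the shares of all windows that hold them were 1.33, 1.86, 14.1, 1.59 and 12.9%.

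FPKM gives fragments relative to transcript length and library size, so levels can be compared between transcripts of different length. For a transcript close to the fragment length, such as TCONS_00096639, that comparison is rough. Low FPKM values in each column fell on steps, which implied a depth of 3866000 fragments in liver column 2 and of 10140000 to 32050000 in the other 11 columns. With fragments assumed to average 140 bases, 84.5 to 90.8% of the values used were whole numbers of fragments to a tolerance of 0.15. Of the marker genes looked for among assigned symbols, few occur in a table of lncRNAs. The Cyp11b3 transcript was highest in the adrenal gland, all 5 transcripts at Sox2 and Dlx6 in hypothalamus, 4 of 5 liver transcripts in liver and the Slc12a1 transcript in outer medulla. Slc12a1, from the kidney list, had 36.5 and 36.6 FPKM in outer medulla, 12.2 and 14.7 in cortex, and at most 1.50 in the other tissues. Cyp11b3 was listed at 0 in both cortex columns. The fifth liver transcript, at the fibrinogen gene Fga, was highest in adrenal gland, at 1.42 and 1.16 FPKM. The single transcript of the heart list, at Myl1, a light chain gene of fast skeletal muscle, had 32.1 and 36.5 in cortex, 34.7 and 32.4 in adrenal gland, and 4.43 and 34.9 in left ventricle. None of the 11 adrenal medulla genes was found, so the share of medulla in the gland could not be read from them.

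TCONS_00096637, the 506-base transcript with no reference gene, had the highest adrenal level of the 5. Its FPKM was 86.9 and 83.6 in the 2 adrenal columns, 5.59 and 8.61 in left ventricle, 9.18 and 3.72 in hypothalamus, and 3.13 and 7.03 in liver. It had 1.84 and 1.17 in outer medulla and 1.41 and 1.27 in cortex. The adrenal columns stood apart from all others, while left ventricle, hypothalamus and liver overlapped one another, as did outer medulla and cortex. The adrenal mean of 85.2 placed it 6th of 2455 transcripts in that tissue. On the scale of FPKM + 0.1, used for each ratio of the adrenal mean of a transcript to the next tissue, the adrenal mean was 11.9-fold that of left ventricle. Ratios between columns and of sums are in plain FPKM. The lowest adrenal column was 9.11-fold the highest other column, hypothalamus 1, in FPKM. Its values correspond to about 431 and 538 fragments in the adrenal columns and to 6.95 to 92.6 elsewhere, so the order among the low tissues rests on few fragments.

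TCONS_00096639, the 184-base transcript of the next listed locus, was also highest in adrenal gland, at lower precision. Its FPKM was 72.7 and 52.7 in adrenal gland, 3.37 and 2.12 in hypothalamus, and 3.78 and 1.50 in left ventricle. It was listed at 0 in liver column 1 and had 4.87 in liver column 2, and it was listed at 0 in all 4 columns of cortex and outer medulla. The adrenal mean of 62.7 was 22.1-fold that of hypothalamus, the next tissue, whose columns overlapped those of left ventricle. With fragments assumed at 140 bases, a transcript this short leaves about 45 bases of usable length. On that assumption 72.7 and 52.7 FPKM stand for only about 44.2 and 41.5 fragments. The 4.87 of liver column 2 would stand for 0.848 fragments, and the left ventricle values for 1.74 and 0.683. These are not whole numbers, so 45 bases may not be the right usable length for this transcript. An assumed 120 bases gave whole numbers nearly as often, for 87.3 against 87.7% of values on average. It would leave more usable length and more fragments, so these counts are rough. A count of 0 allows up to 3 fragments, so cortex and outer medulla could hold 3.64 to 4.48 FPKM and still be listed at 0, and liver column 1 could hold 5.52. These limits cover counting error only, they depend on the assumed fragment length, and a listed 0 can also be a failed estimate. Differences among the 5 tissues other than adrenal gland were therefore not detectable for this transcript.

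**Figure D1:**
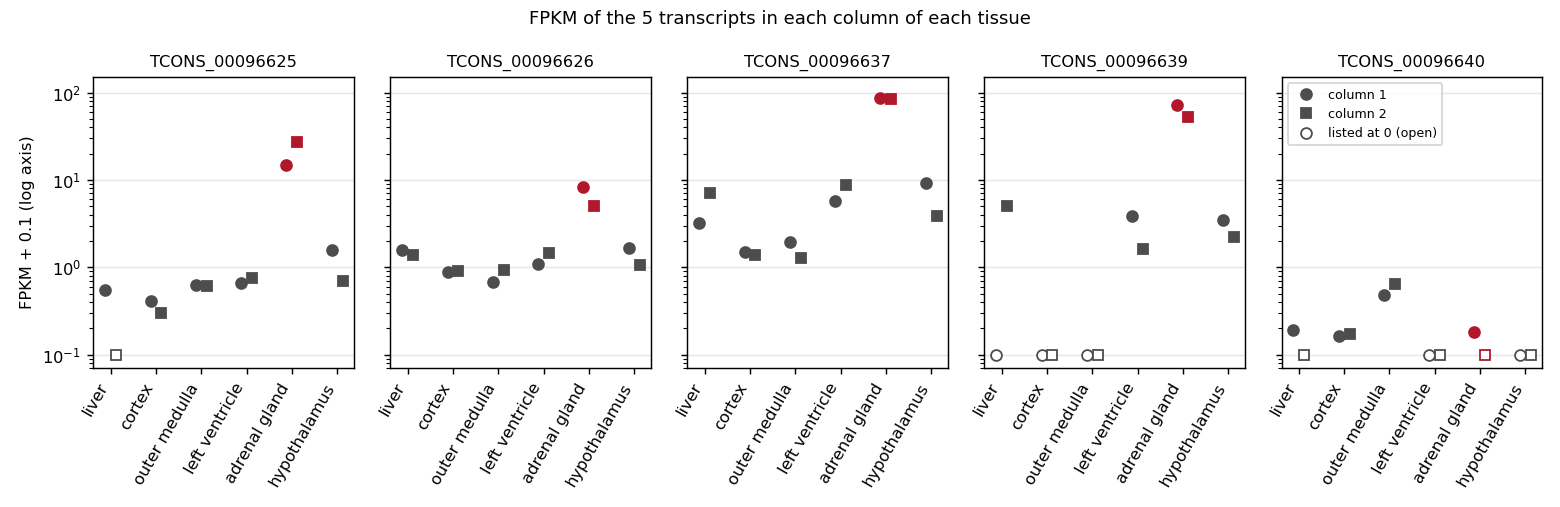
FPKM + 0.1 on a log axis for each of the 5 transcripts, by tissue, with circles for column 1, squares for column 2, red for adrenal gland and open symbols for values listed at 0. Both adrenal points lie above all 10 others for 4 transcripts, and TCONS_00096640 is instead highest in outer medulla, at 0.379 and 0.540.

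TCONS_00096625, the shorter of the Zfp347 transcripts, had a lower FPKM than the short transcripts but a contrast of similar size. It reached 14.7 and 26.9 in adrenal gland, against 1.47 and 0.605 in hypothalamus and 0.567 and 0.661 in left ventricle. Outer medulla had 0.534 and 0.504, cortex 0.309 and 0.196, and liver column 1 0.456, and liver column 2 was listed at 0. The adrenal mean of 20.8 was 18.4-fold that of hypothalamus, and the lowest adrenal column was 10.03-fold the highest other column, hypothalamus 1, in plain FPKM. Left ventricle, outer medulla and cortex did not overlap one another in this order, whereas hypothalamus overlapped left ventricle and the spread of liver covered cortex. Over its length these values correspond to about 1895 and 4488 fragments in adrenal gland and to 27.8 to 384 in the other columns above 0. The adrenal columns differed 1.83-fold from each other.

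TCONS_00096626, the longer Zfp347 transcript, was the most even of the 4 adrenal-high transcripts. It had 8.15 and 4.91 in adrenal gland, 1.46 and 1.29 in liver, 1.55 and 0.948 in hypothalamus, and 0.998 and 1.36 in left ventricle. Cortex had 0.777 and 0.814, and outer medulla 0.574 and 0.835. Liver, hypothalamus and left ventricle overlapped, as did cortex and outer medulla, and the adrenal mean of 6.53 was 4.50-fold that of liver. Its tissue specificity index tau, which runs from 0 (even) to 1 (a single tissue) and was computed on log2(FPKM + 1), was 0.65, close to the 0.66 of TCONS_00096637 and below the 0.87 of TCONS_00096625 and the 0.81 of TCONS_00096639. TCONS_00096626 and TCONS_00096637 reached a mean FPKM of 0.5 in all 6 tissues, as did 142 (5.78%) of the 2455 transcripts, while TCONS_00096625 and TCONS_00096639 did so in 4 tissues.

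TCONS_00096640, the transcript matching ENSRNOG00000008398, had another pattern. Its FPKM was 0.379 and 0.540 in outer medulla, 0.0642 and 0.0742 in cortex, 0.0912 in liver column 1 and 0.0817 in adrenal gland column 1, and it was listed at 0 in the other 6 columns. The outer medulla columns did not overlap those of any other tissue, and their mean of 0.460 was 6.64-fold that of cortex in FPKM. These are small numbers, about 5.98 and 8.97 fragments in outer medulla and 1 fragment in each other column above 0. It reached a mean of 0.5 in no tissue. In liver column 2, the shallowest column, a listed 0 allows up to 0.857 FPKM, above its outer medulla level.

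A transcript was called adrenal-enriched when its adrenal mean was at least 5-fold that of every other tissue, which is a rule of size and not a test. The rule was applied to the 1269 transcripts whose mean FPKM reached 1 in some tissue, and 90 (7.09%) were called. Of the 5 transcripts, 4 reached that minimum, each with the adrenal gland highest, and 3 were called, at 22.1-fold for TCONS_00096639, 18.4-fold for TCONS_00096625 and 11.9-fold for TCONS_00096637. TCONS_00096626 lay just below the rule at 4.50-fold, and would be called without adrenal gland column 2, at a log2 ratio of 2.48. TCONS_00096640 did not reach the minimum. By size of ratio TCONS_00096639 was 2nd, TCONS_00096625 3rd, TCONS_00096637 21st and TCONS_00096626 99th of the 1269. Both adrenal columns were above the 10 other columns for all 4, and for 188 (14.8%) of the 1269. With the lowest adrenal column set against the highest other column, 3 of the 4 and 47 (3.7%) of the 1269 kept a 5-fold difference. With the tissues rescaled to the same median, which raises hypothalamus, the log2 ratios became 3.55, 3.33, 2.78 and 1.41, against 4.46, 4.20, 3.57 and 2.17 as deposited, in the order TCONS_00096639, TCONS_00096625, TCONS_00096637 and TCONS_00096626. The ratio of TCONS_00096639 was 3.66 without liver column 1, and that of TCONS_00096625 was 4.87 without hypothalamus column 1. Nothing is read from these counts, since the interval was picked for its adrenal levels.

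**Figure D2:**
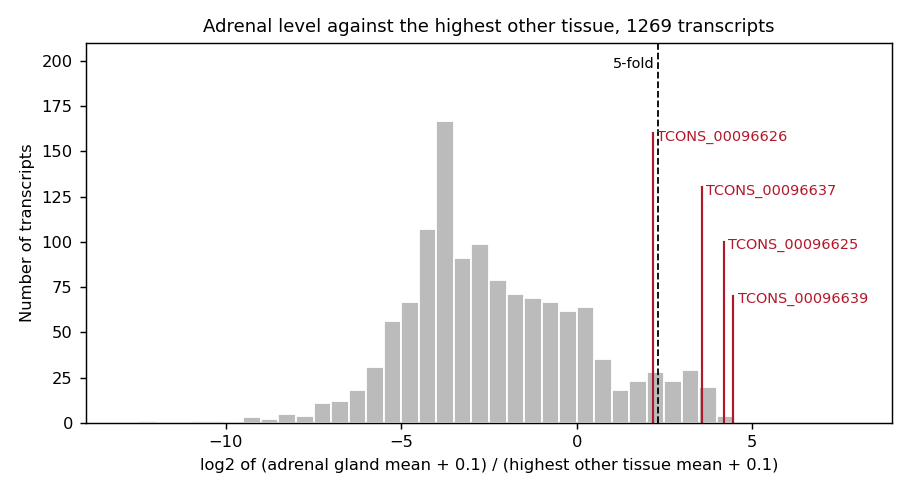
Histogram of the log2 ratio of the adrenal mean to the highest other tissue mean (FPKM + 0.1) over 1269 transcripts, with red lines at 4 transcripts of the interval and a dashed line at 5-fold. TCONS_00096639, TCONS_00096625 and TCONS_00096637 lie beyond the dashed line, at 4.46, 4.20 and 3.57, and TCONS_00096626 lies just before it, at 2.17.

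Summed over the 5 transcripts, the interval had 182.5 and 168 FPKM in adrenal gland, which was 3.37 and 3.46% of all FPKM in those columns. Left ventricle had 10.9 and 12.1, hypothalamus 15.6 and 7.39, liver 5.14 and 13.2, cortex 2.56 and 2.36, and outer medulla 3.33 and 3.05. The adrenal sum was 15.2-fold that of left ventricle, a log2 ratio of 3.93, which became 2.997 over hypothalamus when the tissues were rescaled. Left ventricle, hypothalamus and liver overlapped, all 3 lay above outer medulla, and outer medulla lay above cortex with no overlap. By transcript, TCONS_00096625 and TCONS_00096640 had both outer medulla columns above both cortex columns. Such a separation was seen in 537 (24.9%) of 2158 transcripts above 0 in either tissue, and in 2 of the 4 transcripts of the interval among them.

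The 2 Zfp347 transcripts summed to 22.9 and 31.8 FPKM in adrenal gland, against 3.02 and 1.55 in hypothalamus and 1.01 to 2.02 in the other 8 columns. The columns of the adrenal gland differed 1.39-fold in this sum. The single transcripts moved apart, since TCONS_00096625 was higher in column 2 and TCONS_00096626 in column 1. Division of reads between overlapping forms is an estimate, so their sum is less exposed to it than either transcript. The loci with no reference gene, TCONS_00096637 and TCONS_00096639, summed to 160 and 136 in adrenal gland, 15.2-fold the mean of left ventricle.

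The balance of the Zfp347 transcripts also differed between columns of adrenal gland and of other tissues. In adrenal gland, TCONS_00096625 held 64.4 and 84.6% of the FPKM of the listed Zfp347 transcripts. It held 48.7 and 39.0% in hypothalamus, 36.2 and 32.7% in left ventricle, 48.2 and 37.6% in outer medulla, 23.9 and 0% in liver, and 28.4 and 19.4% in cortex. The adrenal gland was thus the only tissue of the 6 in which the shorter form exceeded the longer in either column, and its columns did not overlap those of the other tissues, whose median share was 34.4%. This share comes from the same values that chose the interval, so it is a description as well. Only transcripts selected as lncRNAs are in the table, so the share leaves out any coding Zfp347 mRNA that is not listed.

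**Figure D3:**
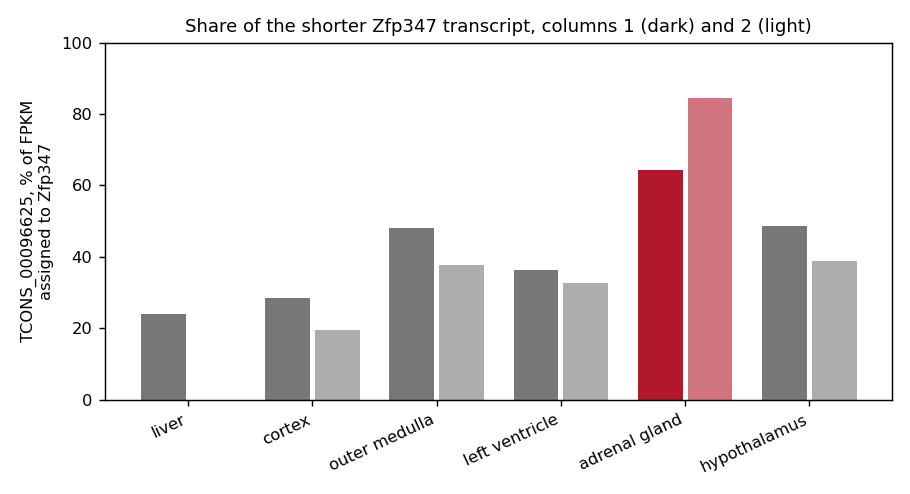
TCONS_00096625 as a percent of the FPKM of the listed Zfp347 transcripts, by tissue, in column 1 (dark bars) and column 2 (light bars). Adrenal gland, in red, had 64.4 and 84.6%, and the highest other bar is 48.7% in hypothalamus column 1.

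Which transcript dominates the adrenal signal depends on whether length is taken into account. By FPKM, TCONS_00096637 held 47.6 and 49.7% of the sum of the interval in the adrenal columns and TCONS_00096639 held 39.8 and 31.3%. By fragments, estimated as FPKM times usable length, TCONS_00096625 held 52.4 and 74.3%, TCONS_00096626 held 34.4 and 16.1%, and TCONS_00096639 held 1.22 and 0.688%. The same reads thus give a different leading transcript on each scale.

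**Figure D4:**
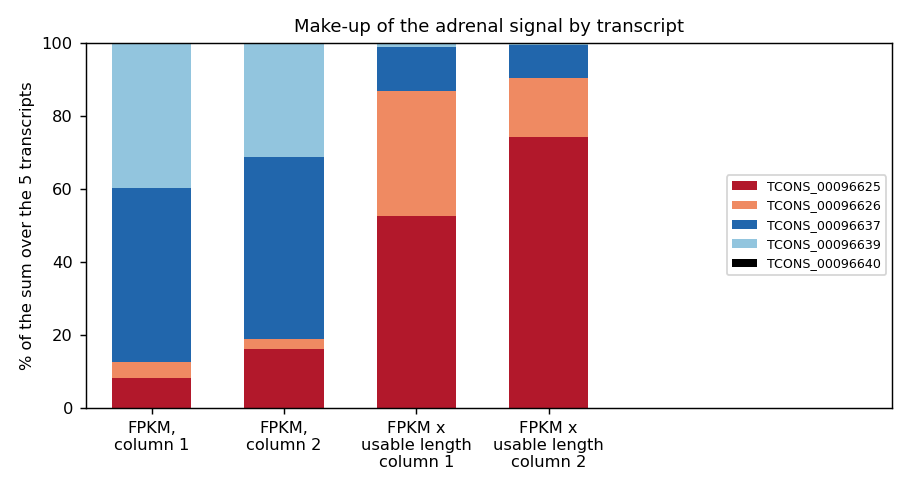
Percent of the sum over the 5 transcripts held by each in the 2 adrenal columns, by FPKM (left bars) and by FPKM times usable length (right bars). TCONS_00096637 and TCONS_00096639 fill most of the FPKM bars, and TCONS_00096625 fills 52.4 and 74.3% of the length-weighted bars.

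Variation among the 4 adrenal-high transcripts was also described without the adrenal gland. Over all 12 columns, Pearson's r of log2(FPKM + 0.1) was 0.94 between TCONS_00096637 and TCONS_00096639 and 0.94 between TCONS_00096637 and TCONS_00096626. Over the 10 columns without adrenal gland these were 0.89 and 0.78. For TCONS_00096625, r with the 3 others was 0.68 to 0.84 over 12 columns and 0.03 to 0.17 without the adrenal columns. Those low values rest on liver column 2, where TCONS_00096625 is listed at 0. A listed 0 there allows up to 0.0815 FPKM, against 0.456 in liver column 1, and TCONS_00096626 had about 56.4 fragments in liver column 2. Why TCONS_00096625 is at 0 there was not tested. Over the 9 columns left without it, r was 0.78 with TCONS_00096637, 0.70 with TCONS_00096639 and 0.56 with TCONS_00096626. The points share libraries and depth, many are near the level of a few fragments, and r is given as a description.

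In hypothalamus, column 1 was higher than column 2 for all 4 adrenal-high transcripts, as it was for 249 (61.6%) of 404 transcripts whose adrenal mean reached 1. As a percent of the adrenal mean, hypothalamus columns 1 and 2 stood at 10.8 and 4.37% for TCONS_00096637, 7.05 and 2.91% for TCONS_00096625, 5.38 and 3.37% for TCONS_00096639, and 23.7 and 14.5% for TCONS_00096626. The median of the other 87 adrenal-enriched transcripts was 10.1% in column 1 and 4.14% in column 2. The rule itself limited these percents, since it required an adrenal mean at least 5-fold that of hypothalamus. TCONS_00096626 did not meet that rule. Among 119 transcripts outside the interval called by the same rule without the hypothalamus columns, the medians were 11.97% in column 1 and 5.87% in column 2. The Cyp11b3 transcript, the adrenal marker at hand, had 5.89 and 1.21 FPKM in hypothalamus against 60.5 and 44.4 in adrenal gland. Whether the values of the interval and of Cyp11b3 in hypothalamus share a source was not tested.

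Transcripts with a like pattern over the 12 columns were looked for outside the interval only, for TCONS_00096639 and TCONS_00096625. Of 1265 such transcripts, TCONS_00098844 was most like TCONS_00096639 (r = 0.98). It overlaps Cyp11b3, a gene of the steroid 11-hydroxylase family, at chromosome 7, 115976559 to 116157978. The next were TCONS_00074458 (r = 0.95; chromosome 4, 61625469 to 61626957), with 33.1 and 26.4 FPKM in adrenal gland, and TCONS_00065922 (r = 0.93; chromosome 3, 60315929 to 60889313), with 2.74 and 2.07. For TCONS_00096625 they were TCONS_00035296 (r = 0.96; chromosome 14, 102888974 to 102923941), TCONS_00070028 (r = 0.96; chromosome 3, 29711175 to 29761287) and TCONS_00110329 (r = 0.95; chromosome 9, 113789420 to 113834862). Apart from TCONS_00098844 none has a reference gene, and the last 3 reached only 1.13 to 2.36 FPKM in adrenal gland. Without the adrenal columns, r was 0.85 to 0.95 for the first 3 and 0.67 to 0.82 for the last 3. Each is among the highest of 1265 values of r, so it is a description. TCONS_00096639 was listed at 0 in 5 columns, and its other values outside adrenal gland stood for about 0.68 to 4.17 fragments. TCONS_00098844, also short at 260 bases, was listed at 0 in the same 5 columns, and these shared zeros enter their r.

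Only 1 other row of the table lay within 1000000 bases of the interval, and it was not adrenal-enriched. TCONS_00096643, which overlaps the zinc finger gene Zfp709l1, begins 235727 bases beyond it (10510140 to 10645717). It had 7.67 and 5.91 FPKM in adrenal gland and 6.93 and 6.93 in left ventricle, and 1.32 to 2.40 in the other 8 columns. Adrenal gland and left ventricle overlapped, with a ratio of 0.98.

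Transcripts assigned to other zinc finger genes were compared by the same ratio. Outside the interval there were 11 of 8 genes, of which 9 reached a mean FPKM of 1 in some tissue and 1 was called adrenal-enriched by the same rule, against the 7.09% called among all 1269. Of those 9, 3 are transcripts of the single gene Zbtb7c. The called one was TCONS_00049158 at Zbtb7c, which codes for a zinc finger protein with a BTB domain, at 8.56-fold. Another Zbtb7c transcript, TCONS_00049157, was at 4.88-fold, and both had adrenal means near 2.2 FPKM. TCONS_00049159, also at Zbtb7c, was lower, at 2.50-fold. The remaining Zbtb7c transcript, TCONS_00049161, did not reach the minimum. It had 0.00186 and 0 FPKM in adrenal gland, and 0.361 and 1.53e-04 in hypothalamus. The median log2 ratio of the 9 was -0.03, against -2.68 for all 1269 transcripts tested.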

How the data were processed

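TRIzol extraction of total RNA and a stranded TruSeq kit are named in the labels' protocols. The submitters' processing notes name rn5 and bcl2fastq 2.15.0. The authors deposited FPKM for transcripts they had selected as lncRNAs, with transcript length as a further deposited value. The aligner, estimator and annotation, and how lncRNAs were selected, were not given in the sources used here. Of 2458 rows, 3 had no values and were left out.

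The members and lists were chosen with earlier results of these data known. The named transcripts are all members, the 3 outside transcripts with the highest r to TCONS_00096625 and TCONS_00096639, the neighbour within 1000000 bases, and zinc finger transcripts called adrenal-enriched. TCONS_00049157, TCONS_00049159 and TCONS_00049161 were named after their values were seen. The 2 columns of a tissue were averaged as repeats of 1 sample, so no test between tissues was run. Depth was found as the value that brought fragments of low transcripts, alone at their locus and over 500 bases, nearest to whole numbers. Depth finding and the rule of size were tested on simulated data. Alternatives were other pseudocounts, minimums, fold rules, rescaling and each column left out. Leaving out hypothalamus, ratios within a column number, and r among the members without liver column 2 were added after seeing the data. Promoter sequence is from RefSeq (GRCr8), and of 2 gene names in the interval 1 matched. Python 3.11.15, pandas 2.3.3, NumPy 2.4.6 and matplotlib 3.10.9 were used.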

Additional observations from a re-analysis of the deposited data

How the results depend on the processing

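The log2 ratio of adrenal gland to the highest other tissue kept its sign for all 5 transcripts under every alternative run, and the 3 called transcripts stayed called. With a pseudocount of 1 the ratio was 3.42 for TCONS_00096625, 4.09 for TCONS_00096639, 3.41 for TCONS_00096637, 1.67 for TCONS_00096626 and -0.49 for TCONS_00096640, which stood at -3.21 with 0.01. Without any 1 column it ran from 3.71 to 4.87 for TCONS_00096625 and 3.66 to 4.68 for TCONS_00096639. It ran from 3.20 to 3.70 for TCONS_00096637 and -2.48 to -1.62 for TCONS_00096640. For TCONS_00096626 it ran from 1.77 to 2.48, and without adrenal gland column 2 it passed 5-fold, since that column holds its lower adrenal value. So the number of called transcripts in the interval was 3 to 4. Rescaling the tissues to the same median, which raises hypothalamus 1.90-fold, gave 3.33, 3.55, 2.78 and 1.41 for TCONS_00096625, TCONS_00096639, TCONS_00096637 and TCONS_00096626. The log2 ratio of the summed interval to the next tissue was 3.93, fell to 2.997 with rescaling, where hypothalamus came next, and ran from 3.49 to 3.98 without any 1 column.

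Among all transcripts 90 were called, against 146 at 2-fold, 28 at 10-fold, 16 with a pseudocount of 1, 47 by the lowest adrenal against the highest other column, and 77 to 102 without any 1 column. For TCONS_00096639 the same 3 like transcripts were found with a pseudocount of 1, and for TCONS_00096625 1 of 3. No paired analysis was possible because no test between tissues was run and the labels do not say that a column number marks a shared animal. Ratios within column numbers 1 and 2, added after seeing the data, were 3.24 and 5.15 for TCONS_00096625, 4.23 and 3.41 for TCONS_00096639, 3.23 and 3.26 for TCONS_00096637, 2.32 and 1.78 for TCONS_00096626, and -1.40 and -2.68 for TCONS_00096640. In number 1 TCONS_00096626 just passed 5-fold. Depth limits TCONS_00096639 and TCONS_00096640 most, and liver column 2 among the columns.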
